A study of Danio rerio with 6 samples.

Results

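Cartilage of the zebrafish larva is built by chondrocytes, which are governed by the Sox9 transcription factors and which surround themselves with type II collagen and a set of proteins that are not collagens. Here 9 such genes were followed in *mgt* larvae. They are the paralogs *sox9a* and *sox9b* and the matrix or chondrocyte surface genes *acana*, *matn1*, *hapln1a*, *cnmd*, *epyc*, *ucmab* and *snorc*. They were chosen by gene name from a table of 32520 genes, and each name matched 1 gene. RNA came from whole larvae at 4 dpf, from 3 AB-strain WT pools and 3 pools in which larvae had both copies of *plod3* carrying the maggot (*mgt*) allele, with 60 larvae in every pool. The labels call the *mgt* pools *plod3* KO. The study's text describes the allele as a chemically induced missense change in the glycosyltransferase domain, and takes it to be probably null or strongly hypomorphic. Plod3 is the collagen lysyl hydroxylase that also adds sugars to hydroxylysine. The same description of standard rearing covers all pools, and the labels name no agent.

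In mouse, Sox9 works with Sox5 and Sox6 on the enhancers of type II collagen, aggrecan, link protein and matrilin genes. Aggrecan carries many chondroitin sulfate chains and binds hyaluronan, link protein locks that bond, and matrilins tie the aggregates to collagen fibrils. The zebrafish kept a pair of *sox9* genes after its genome duplication, and *sox9a* is the gene disrupted in the jellyfish mutant, which lacks cartilage. Both genes are also active outside cartilage, among other places in glia, retina, ear and fin, so their RNA in a whole larva is not that of chondrocytes alone.

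Levels are RPKM, the reads per kilobase of gene and per 1000000 reads of the library. From the steps between values of short genes, the libraries held 43.4 to 50.3 times 1000000 reads in WT and 38.35 to 42.6 times 1000000 in *mgt*. The gene length behind the values is not given in the sources used here. Sample labels give 1 batch number to all WT pools and another to all *mgt* pools, and 0 batches hold both, so batch and genotype cannot be told apart. WT replicate 1 stood apart, at 0.532 of the way from the other WT replicates to *mgt* on the first principal component, and results are given with and without it where that matters. *plod3* RNA was present in every library, at 14.2 to 16.8 RPKM in WT and 23.9 to 24.4 in *mgt*, which is no check of a missense allele.

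Of the 9 genes, 7 were higher in *mgt* and 0 were lower. Calls rest on limma, fitted to log2(RPKM + 0.5) of the 20435 genes whose mean RPKM reached 0.5. They needed an adjusted p (Benjamini-Hochberg) under 0.05 and a log2 fold change of at least 0.322 either way. Standard errors (SE) are on the same log2 scale. By the same rule 31.8% of all genes tested were higher and 15.6% were lower. All *mgt* values exceeded all WT values in 8 of the 9 genes and in 41.7% of all genes tested. The median log2 fold change was 1.01 over the 9 genes and 0.29 over all genes tested. The 9 genes together made up 0.0606% to 0.0631% of the summed RPKM of a WT library and 0.139% to 0.150% of that of an *mgt* library. Because RNA came from whole larvae, more cartilage cells, more RNA per cell, RNA of cells outside cartilage and a changed share of other tissues cannot be told apart.

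**Figure D1:**
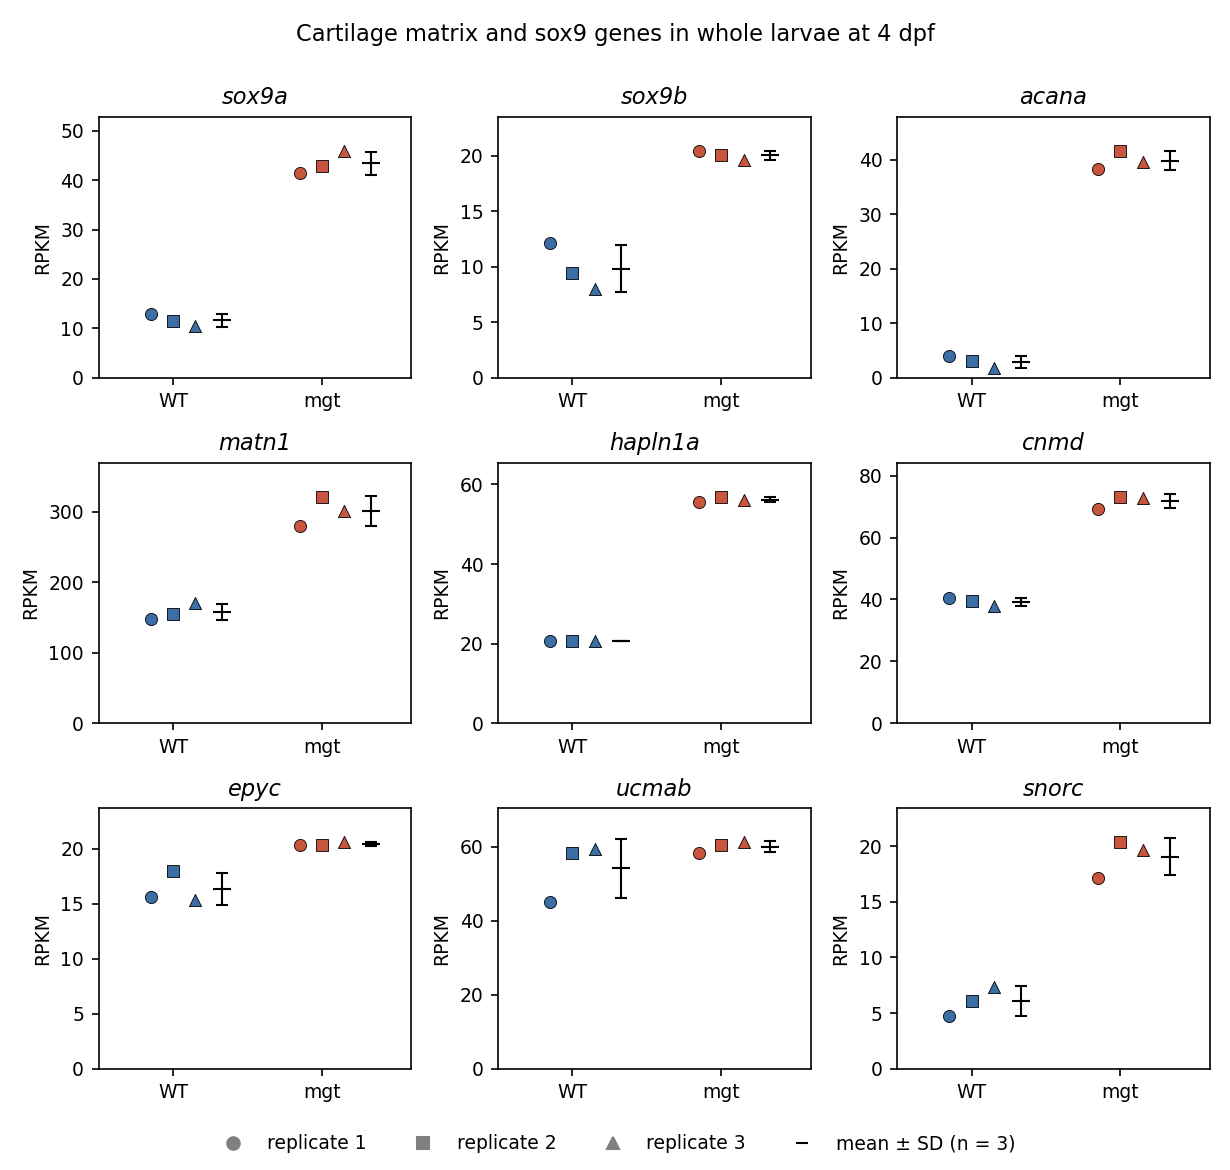
RPKM of each gene (vertical axes, linear and starting at 0) in the 3 WT and 3 *mgt* pools, where each point is a pool, its shape gives the replicate, and the black bars give the mean ± SD. The *mgt* points lie above the WT points in every panel but that of *ucmab*, and the ratio of the lowest *mgt* to the highest WT value is largest for *acana*, 9.65, from at most 3.96 in WT to at least 38.2 in *mgt*.

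The *sox9* genes both rose, *sox9a* by more. *sox9a* (ENSDARG00000003293, chromosome 12, 1947593 to 1951284 of GRCz11) was at 12.95, 11.4 and 10.4 RPKM in WT replicates 1, 2 and 3 and at 41.5, 42.9 and 45.95 in *mgt* replicates 1, 2 and 3. The groups are far apart, with the lowest *mgt* pool at 3.2 times the highest WT pool. Its log2 fold change was 1.86 (SE 0.11, limma adjusted p = 0.000164). *sox9b* (ENSDARG00000043923, chromosome 3, 62521041 to 62527696) was at 12.1, 9.45 and 7.96 RPKM in WT and at 20.4, 20.05 and 19.6 in *mgt*. The WT pools of *sox9b* were spread more widely than the *mgt* pools, with coefficients of variation of 21.4% and 2.13%, and the groups did not overlap. Its log2 fold change was 1.01 (SE 0.16, limma adjusted p = 0.00464).

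The balance between the *sox9* paralogs shifted toward *sox9a*. A ratio of 2 RPKM values within a library does not move with the scaling of that library. With 0.5 added it can move where a gene is near that value, as *matn3a* was in WT replicate 1 (0.53 RPKM). The ratio of *sox9a* to *sox9b*, with 0.5 added to each RPKM, lay between 1.07 and 1.29 in the WT pools and between 2.00 and 2.31 in the *mgt* pools. On the log2 scale the difference was 0.86 (two-sided exact permutation p = 0.10, which is the lowest possible with 3 pools against 3, and 0.114 after Benjamini-Hochberg adjustment over the 16 ratios computed). In WT the ranges of the 2 genes overlapped, and in *mgt* every *sox9a* value was above every *sox9b* value.

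Aggrecan changed most among the 9 genes. *acana* (ENSDARG00000035891, chromosome 7, 48761646 to 48787379), which encodes the core protein of the large cartilage proteoglycan, was at 3.96, 2.97 and 1.77 RPKM in WT replicates 1, 2 and 3 and at 38.2, 41.6 and 39.55 in *mgt*. All 3 *mgt* pools were close together, whereas the WT pools had a coefficient of variation of 37.8%. The *mgt* mean was 13.7 times the WT mean, and single pools differed by 9.65 to 23.5 times. The log2 fold change of 3.62 (SE 0.24, limma adjusted p = 0.000246) ranked 21 from the top among the 20435 genes tested. WT replicate 1 had the highest WT value, and the *mgt* mean was 10.04 times this pool and 16.8 times the mean of WT replicates 2 and 3. Its share of the summed RPKM of the 9 genes went from 0.535% to 1.31% in WT to 6.22% to 6.36% in *mgt*.

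The paralog *acanb* rose as well, by less. It was at 2.03 to 3.22 RPKM in WT and 13.8 to 14.99 in *mgt*, a log2 fold change of 2.34 (SE 0.17, limma adjusted p = 0.000318). The ratio of *acana* to *acanb* went from 0.897 to 1.24 in the WT pools to 2.59 to 2.72 in the *mgt* pools. This is a log2 difference of 1.28 without overlap (exact permutation test, two-sided p = 0.10).

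The gene of the link protein between aggrecan and hyaluronan rose. This gene, *hapln1a* (ENSDARG00000089769, chromosome 5, 46490622 to 46505702), was at 20.6 RPKM in each WT pool and at 55.6, 56.95 and 55.97 in *mgt*. Its pools differed little within a genotype, with coefficients of variation of 0.112% in WT and 1.22% in *mgt*. The log2 fold change was 1.43 (SE 0.077, limma adjusted p = 0.000133), a 2.73-fold difference of the means. The paralog *hapln1b* went from 6.66 to 8.23 RPKM in WT to 25.8 to 27.7 in *mgt*, with a log2 fold change of 1.83. The ratio of *hapln1a* to *hapln1b* was lower in *mgt* (2.04 to 2.14) than in WT (2.42 to 2.95), so here the paralog outside the chosen set moved further.

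*matn1* (ENSDARG00000030215, chromosome 19, 43314700 to 43338280), the cartilage matrilin that bridges collagen fibrils and proteoglycans, was the most abundant of the 9 genes per kilobase in both genotypes. Its RPKM was 147.6, 155.3 and 170.0 in WT and 280.1, 321.7 and 301.1 in *mgt*. The groups did not overlap, and the mean rose 1.91-fold, with a log2 fold change of 0.93 (SE 0.10, limma adjusted p = 0.00136). Its share of the summed RPKM of the 9 genes stayed near that in WT, at 46.6% to 48.9% in *mgt* and 48.3% to 51.4% in WT.

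Other matrilins did not move alike. *matn3a* rose from 0.53, 3.10 and 3.36 RPKM in WT replicates 1, 2 and 3 to between 13.4 and 15.2 in *mgt*, and *matn3b* rose from between 3.48 and 5.60 to between 29.1 and 32.5. Their log2 fold changes were 2.60 and 2.62 (limma adjusted p = 0.00865 and 0.000234), and for *matn3a* the difference from WT replicates 2 and 3 alone was 1.99. *matn4*, nearly as abundant as *matn1* in WT at 141.3 to 160.2 RPKM, was at 153.9 to 165.0 in *mgt* and was not called (log2 fold change 0.09, limma adjusted p = 0.395). The ratio of *matn1* to *matn4* accordingly went from 0.969 to 1.146 in WT to 1.82 to 1.95 in *mgt*. That of *matn1* to *matn3a* fell by 1.67 on the log2 scale, and by 1.10 without WT replicate 1. Both pairs of ranges are separate (exact permutation test, two-sided p = 0.10 for each).

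Next come the genes of chondrocyte surface proteins. *cnmd* (ENSDARG00000100133, chromosome 9, 53725128 to 53744243) encodes chondromodulin, a membrane glycoprotein known for keeping vessels out of cartilage. It was at 40.45, 39.5 and 37.8 RPKM in WT and at 69.3, 73.3 and 72.8 in *mgt*, with coefficients of variation of 3.43% and 3.04%. The groups did not overlap, and the log2 fold change was 0.86 (SE 0.080, limma adjusted p = 0.000799). Its tendon relative *tnmd*, which encodes tenomodulin, went the other way, from between 14.04 and 17.9 RPKM in WT to between 10.1 and 11.0 in *mgt* (log2 fold change -0.54, limma adjusted p = 0.0136). The ratio of *cnmd* to *tnmd* was 2.18 to 2.82 in WT and 6.29 to 6.90 in *mgt*.

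*snorc* (ENSDARG00000092383, chromosome 2, 48182604 to 48196092), which in mammals encodes a small transmembrane chondroitin sulfate proteoglycan of chondrocytes, was at 4.76, 6.11 and 7.38 RPKM in WT and at 17.1, 20.35 and 19.7 in *mgt*. The lowest *mgt* pool was 2.32 times the highest WT pool. The log2 fold change was 1.59 (SE 0.17, limma adjusted p = 0.00133). In contrast with *acana* and the *sox9* genes, WT replicate 1 was the lowest WT pool for *snorc*, and hence farther from *mgt* than the others.

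The remaining 2 genes were not called. *epyc* (ENSDARG00000056950, chromosome 4, 16317296 to 16334362), which encodes the small leucine-rich proteoglycan epiphycan, was at 15.6, 18.0 and 15.35 RPKM in WT and at 20.3, 20.3 and 20.6 in *mgt*. All *mgt* pools lay above all WT pools, but by little, and the log2 fold change of 0.318 (95% interval 0.083 to 0.55, limma adjusted p = 0.0373) fell just short of the fold threshold and was close to the median of all genes. *ucmab* (ENSDARG00000005485, chromosome 25, 7982979 to 7988936), which encodes a secreted vitamin K-dependent protein of cartilage, was at 45.1, 58.2 and 59.35 RPKM in WT and at 58.3, 60.5 and 61.25 in *mgt*. The low value of WT replicate 1 apart, the WT and *mgt* pools were at about the same level and overlapped. The log2 fold change was 0.16 (95% interval -0.14 to 0.45, limma adjusted p = 0.319). Each of these 2 genes overlaps 2 others of the table in position, with mean RPKM of at most 7.22 at *epyc* and 4.47 at *ucmab*, and the sources used here do not say whether reads were counted by strand. None of the other 7 genes overlaps another gene of the table.

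The paralog *ucmaa* fell. It was at 9.85, 11.4 and 14.4 RPKM in WT and at 2.51, 2.34 and 2.04 in *mgt*, with a log2 fold change of -2.13 (SE 0.17, limma adjusted p = 0.000437). All *mgt* pools were far below the lowest WT pool. The ratio of *ucmab* to *ucmaa* went from 4.03 to 4.94 in WT to 19.5 to 24.3 in *mgt*, a log2 difference of 2.29 and the largest of the 7 ratios to a paralog or partner gene (exact permutation test, two-sided p = 0.10).

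**Figure D2:**
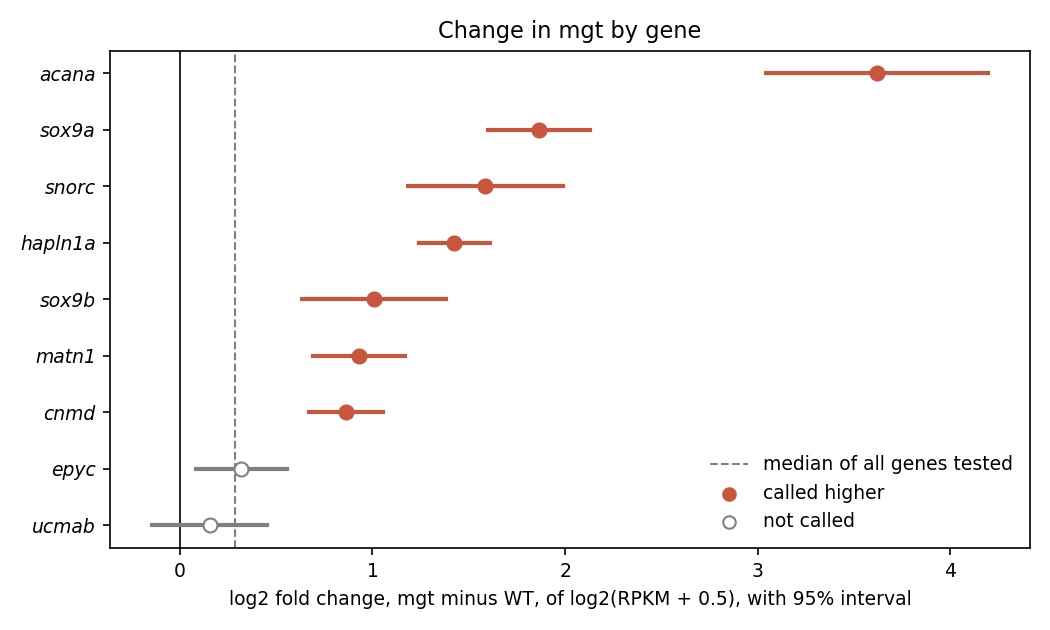
Log2 fold change of *mgt* against WT for each of the 9 genes (horizontal axis, on log2(RPKM + 0.5)), with bars for the 95% interval from limma and filled points for genes called higher. The 7 called genes lie from 0.86 to 3.62, while *epyc* and *ucmab* lie on either side of the dashed line, the median of 0.29 over all genes tested.

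With these changes the order of levels was rearranged. In WT the 9 genes ran from *matn1* through *ucmab*, *cnmd*, *hapln1a*, *epyc*, *sox9a*, *sox9b* and *snorc* to *acana*, and only *sox9a* and *sox9b* had ranges that overlapped with their neighbour. In *mgt* the order was *matn1*, *cnmd*, *ucmab*, *hapln1a*, *sox9a*, *acana*, *epyc*, *sox9b* and *snorc*. There the ranges of *sox9a* and *acana* overlapped, as did those of *epyc* with *sox9b* and of *sox9b* with *snorc*. Thus *acana*, lowest per kilobase in WT, reached the level of *sox9a* in *mgt*, and *cnmd* passed *ucmab*. The coefficient of variation between pools was larger in WT than in *mgt* for 8 of the 9 genes, the exception being *hapln1a*. The share of all genes tested with a larger coefficient in WT was not counted, so this is not given as particular to the 9 genes.

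The place of WT replicate 1 differed from gene to gene. It was the highest WT pool for 4 genes and the lowest for 3. For *acana*, *sox9b* and *sox9a* it was above the mean of WT replicates 2 and 3 by 0.67, 0.46 and 0.24 on the log2 scale, toward *mgt*. For *snorc*, *ucmab* and *matn1* it was below that mean, at -0.46, -0.38 and -0.14, away from *mgt*. Against WT replicate 1 alone the *mgt* means were higher by 3.17 for *acana*, 1.71 for *sox9a*, 0.70 for *sox9b*, 1.89 for *snorc* and 1.02 for *matn1* on the log2 scale. All 7 genes called higher were called without WT replicate 1 as well.

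The type II collagen gene *col2a1a* was used as a yardstick for the other genes, since type II is the main collagen of cartilage. The study also stained type II collagen in the notochord sheath, and most notochord markers tested below were higher in *mgt*. The ratios are therefore those of whole larvae, and the part of the notochord in them was not tested. *col2a1a* was at 207.9, 212.0 and 130.7 RPKM in WT replicates 1, 2 and 3 and at 587.9, 600.4 and 610.6 in *mgt*, a log2 fold change of 1.74 (SE 0.19, limma adjusted p = 0.00155). Its paralog *col2a1b* rose by less, with a log2 fold change of 1.19 (SE 0.18, limma adjusted p = 0.00453). It was at 103.6, 104.4 and 66.7 RPKM in WT and at 205.9, 201.2 and 206.9 in *mgt*. Ratios to *col2a1b* were not computed, so the direction of the ratios below holds for *col2a1a* alone. The ratio of *acana* to *col2a1a* was higher in *mgt*, by 1.88 on the log2 scale and without overlap. The ratios of *sox9b*, *matn1*, *hapln1a*, *cnmd*, *epyc* and *ucmab* to *col2a1a* were lower in *mgt* without overlap, with differences from -1.58 for *ucmab* to -0.31 for *hapln1a* (exact permutation test, two-sided p = 0.10 and adjusted p = 0.114 for each). For *sox9a* and *snorc* the ranges overlapped. The differences were 0.13 for *sox9a* (exact permutation test, two-sided p = 0.50) and -0.15 for *snorc* (exact permutation test, two-sided p = 0.90). *col2a1a* was lowest in WT replicate 3. Without that replicate the difference was -0.087 for *hapln1a*, -0.52 for *matn1*, 0.28 for *sox9a* and 0.21 for *snorc*. Without WT replicate 2 it was -0.0040 for *sox9a*.

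**Figure D3:**
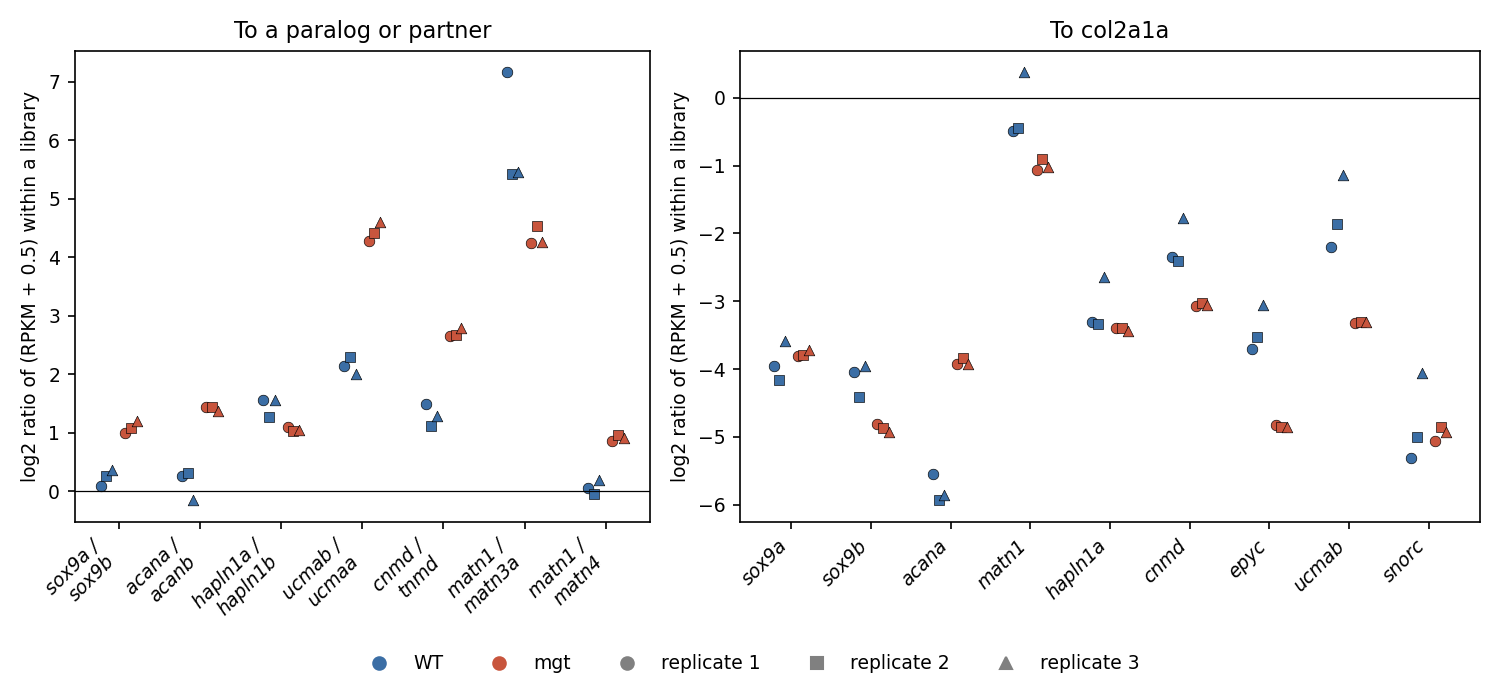
Log2 ratio of RPKM + 0.5 within each library (vertical axes), to a paralog or partner gene (left) and to *col2a1a* (right), with WT in blue, *mgt* in red and the replicate by shape. WT and *mgt* points are apart in all 7 pairs on the left and in 7 of 9 on the right, where *acana* is the gene whose *mgt* points lie above its WT points.

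Other genes of the cartilage program, listed by name, were counted in the same fit. Of 14 tested regulators of chondrocyte formation, 13 were called higher and 0 lower, with a median log2 fold change of 0.88. With the gene span trend removed 6 were called higher, and over all genes tested the number higher went from 6494 to 3795. The highest were *sox5*, the partner of *sox9* (4.83 to 9.60 RPKM in WT, 17.1 to 18.7 in *mgt*, log2 fold change 1.45), and *trps1* (1.34), a repressor that in mouse acts in chondrocyte maturation. For *sox5* the log2 difference was 0.85 against WT replicate 1 and 1.75 against WT replicates 2 and 3. The lowest of those called were *barx1* (0.60), a regulator of jaw cartilage patterning, and *mef2ca* (0.62), which acts in the lower jaw. Among 11 tested cartilage collagens, 9 were higher and 1 was lower, with a median of 1.07. The number higher was 7 with any 1 *mgt* replicate left out, 6 with the gene span trend removed and 10 with libraries rescaled to the same sum. *col11a2* and *col9a1b* had the highest values, 2.04 and 2.03, and *col27a1b* the lowest of those that rose, 0.59. *col10a1a*, the collagen of hypertrophic cartilage and of larval bone, was the collagen that fell, from 131.6 to 161.1 RPKM in WT to 95.6 to 103.5 in *mgt* (log2 fold change -0.57, limma adjusted p = 0.00819). This call was lost when libraries were rescaled to the same sum.

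The other cartilage matrix genes that are not collagens split. Of 16 tested, 9 were higher, 2 were lower and 5 were not called, with a median of 0.66. The number higher was 8 with a filter at 1 or with any 1 *mgt* replicate left out. It was 7 with median-of-ratios factors or the gene span trend removed, 6 with quantile normalization and 11 with libraries rescaled to the same sum. *prg4a*, named after its values were seen, had a WT mean of 0.457 RPKM and passed the filter only through its *mgt* level. *matn3b* and *matn3a* led the rise. The 2 that fell were *ucmaa* and *otos*, whose mammalian counterpart is known from the inner ear (45.2 to 47.0 RPKM in WT, 21.0 to 22.3 in *mgt*, log2 fold change -1.09). In the list of hedgehog, PTHrP, FGF and BMP signals, 11 of 15 tested genes were higher and 0 lower, with a median of 0.86. *fgfr3*, a receptor that in mammals restrains cartilage growth, was at 2.66 to 4.41 RPKM in WT and 14.1 to 15.1 in *mgt* (log2 fold change 1.96). The lowest of those called were *bmpr1bb* (0.51) and *ihha* (0.57). Its paralog *ihhb*, named here after its values were seen, was at 0.03 to 0.07 RPKM in WT and 1.12 to 1.72 in *mgt*. *ihhb* passed the filter only through its *mgt* level, so the filter bears on this count. With a filter at 1 the number higher was 10. It was 9 with any 1 *mgt* replicate left out, 8 with the gene span trend removed and 13 with libraries rescaled to the same sum.

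Of 17 genes for sulfate supply and chondroitin chains, which aggrecan needs, 10 were higher and 1 was lower, with a median of 0.52. With any 1 *mgt* replicate left out, with quantile normalization or with the gene span trend removed the number higher was 6. Without WT replicate 1 it was 15, and with a filter at 1 it was 9. *chst3b*, named after its values were seen, had a WT mean of 0.303 RPKM and passed the filter only through its *mgt* level. *xylt1*, which starts the chains, and *chst11*, which sulfates them, had the highest values, 1.35 and 1.27. Against WT replicate 1 alone these were 0.80 and 0.72, and against WT replicates 2 and 3 they were 1.62 and 1.55. The lower gene was *papss2a* (-0.62), which makes the sulfate donor, and its paralog *papss2b* rose by 0.44 on the log2 scale. The number lower was 0 with no filter, with libraries rescaled to the same sum, without WT replicate 3 and with any 1 *mgt* replicate left out. In each of these lists the share called higher in the main fit was read beside the 31.8% of all genes. No test of the lists was made. The number of all genes called higher also moved with the settings, from 6494 to 3795 with the gene span trend removed and 4672 with quantile normalization. It was 8816 with libraries rescaled to the same sum and 4872 with median-of-ratios factors. It was between 2395 and 2482 with any 1 *mgt* replicate left out and 10634 without WT replicate 1. List counts under these settings belong beside those numbers.

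**Figure D4:**
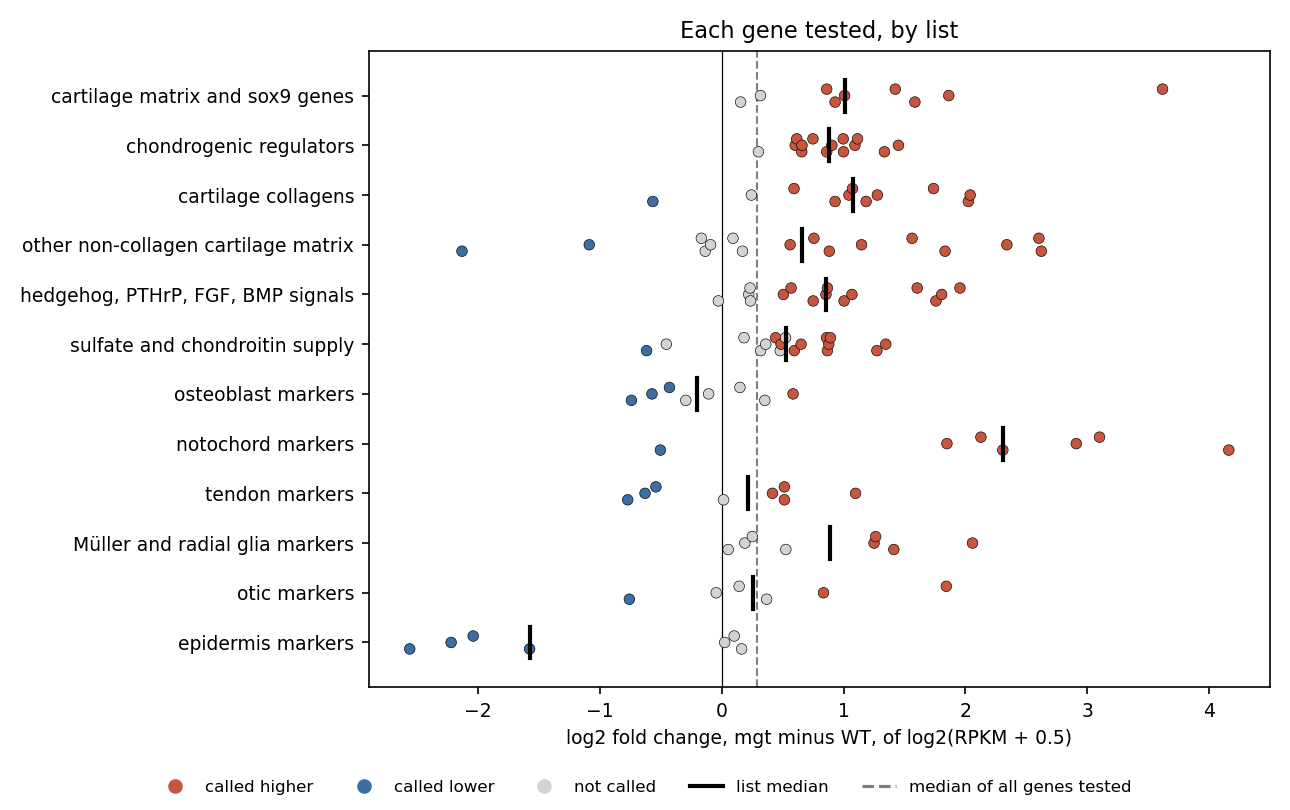
Log2 fold change of every tested gene (horizontal axis, on log2(RPKM + 0.5)), in rows by list, colored by call, with a black bar for the median of each list and a dashed line for the median of all genes tested. The medians of the 9 cartilage genes and of the cartilage collagens are close, 1.01 and 1.07. The median of the tested notochord markers is 2.31, a value on which the filter bears. The median of the 7 epidermis markers is -1.58, with 4 keratin genes called lower and 3 markers not called.

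Markers of other tissues, some of which can express *sox9* or cartilage matrix genes, were counted too. Of 7 tested notochord markers, 6 were higher and 1 was lower, beside 31.8% higher and 15.6% lower among all genes. Their summed RPKM was 63.6 to 69.7 in WT and 185.8 to 202.9 in *mgt*, and *noto*, a defining marker named after its values were seen, was at or below 0.24 in every library and was not tested. The markers *loxl5b* (0.16 to 0.30 RPKM in WT, 2.89 to 3.09 in *mgt*) and *tbxta* (0.08 to 0.18 in WT, 3.61 to 5.02 in *mgt*), named after their values were seen, passed the filter only through their *mgt* levels, so the filter bears on this count and on the list's median. *cmn* and *col8a1a*, both known from the notochord, had log2 fold changes of 4.16 and 3.10. *shha*, the hedgehog signal of the notochord and floor plate, rose by 1.85 on that scale, and *ntd5* fell by 0.50. For *shha* the difference was 1.02 against WT replicate 1 and 2.26 against WT replicates 2 and 3. The call of *ntd5* was lost with no filter, with libraries rescaled to the same sum, and without WT replicate 2, WT replicate 3 or any 1 *mgt* replicate. Of 8 glial markers, 4 were higher and 0 lower (*slc1a2b* 2.06, *gfap* 1.41, *cx43* 1.26 and *glula* 1.251 on the log2 scale), beside 31.8% and 15.6% of all genes. The other 4, *fabp7a*, *rlbp1a*, *s100b* and *her4.1*, named after their values were seen, were not called. The summed RPKM was 425.7 to 669.5 in WT and 860.8 to 926.1 in *mgt*. WT replicate 1 stood apart here, with *slc1a2b* at 84.8 RPKM against 18.7 and 25.4 in WT replicates 2 and 3. Among 6 tested ear markers, *pax2a* (1.84) and *tecta* (0.84) were higher and *otomp* (-0.76) was lower, with sums of 115.9 to 153.5 in WT and 112.5 to 122.2 in *mgt*. Against WT replicate 1 alone the values were 1.19 for *pax2a*, 0.30 for *tecta* and -0.75 for *otomp*. Against WT replicates 2 and 3 they were 2.17, 1.10 and -0.76. These 3 calls among 6 genes are near the shares over all genes, 31.8% higher and 15.6% lower. The number higher was 1 with a filter at 1, with the span trend removed and without WT replicate 2, WT replicate 3 or any 1 *mgt* replicate, and the number lower was 4 with the span trend removed. Of 7 epidermis markers, 4 keratin genes were lower (*krt4* -1.58, *krt5* -2.04, *krt91* -2.22 and *krtt1c19e* -2.56) and 0 were higher. The other 3, named after their values were seen, were not called (*epcam* 0.02, *cdh1* 0.10 and *tp63* 0.16). In the main fit the fall is therefore that of the keratins, and 15.6% of all genes tested were lower. With the gene span trend removed 6 of the 7 markers were lower, and lower genes over all genes went from 3194 to 5211. The summed RPKM of the 7 markers was between 14120 and 15490 in WT and between 3685 and 4266 in *mgt*. The part of these shifts in the values of the 9 genes was not tested.

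Genes with the most similar pattern over the 6 libraries were looked up among 15387 named genes whose mean RPKM reached 1. Likeness was the root mean square difference between log2 values centred on their mean. For *sox9a* these were *fbxl3l* (0.051), *ccn1l2* (0.058) and *selenon* (0.061). For *sox9b* they were *ssbp3a* (0.031), *huwe1* (0.032) and *prrc2c* (0.033). For *acana* they were *ankrd37* (0.076), *scpp9* (0.178) and *emilin3a* (0.194). These values describe 6 libraries that share the difference between genotypes.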

How the data were processed

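RNA of 6 pools of whole larvae (3 WT, 3 *mgt*) was depleted of ribosomal RNA, and which of the named kits served each pool is not given in the sources used here. The authors trimmed reads (cutadapt 5.2 in the submitters' processing notes), used STAR with GRCz11 and HTSeq for alignment and counting, and deposited RPKM values with 2 decimals. The deposited values are named as holding no outliers, and the numbers in the library names have gaps. Whether pools were left out before deposit is not stated in the sources used here, and such a choice would narrow the spread between pools. The authors' RPKM mean of WT equals that of WT replicates 2 and 3 in all 32520 genes. Their mean, SD and ratio columns gave no result here. Labels and a figure legend of the study call the pools biological replicates, and another of its legends calls them technical. The p-values therefore measure only the spread between pools.

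The 32521 lines hold 1 repeated gene. Library totals came from genes spanning at most 160 bases, as single values without an interval. RPKM times the start-to-end span summed to 7.02 to 8.66 where reads allow at most 1 (in units of 1000000), so the span was not the length used. The fit was lmFit and eBayes with trend (limma 3.58.1, R 4.3.3), adjusted over all 20435 genes. Ratios had exact permutation tests. Code was tested on simulated data.

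Named genes were the 9 genes, *plod3*, paralogs and partners, the 2 highest and 2 lowest called genes of each list, and nearest patterns, others being marked in the text, and 1 gene that the rule names is not reported here. Genes and lists were chosen with earlier results of these data known. Of 131 listed names, 7 were not found. Alternatives were pseudocounts of 0.1 and 1, no filter or one at 1, rescaling to the same sum, median-of-ratios factors, quantile normalization, removal of a lowess trend with gene span (0.3), eBayes without trend and robust, a replicate block, other thresholds, and leaving out each replicate. Figures used Python 3.11.15 and matplotlib 3.10.9. Promoter and protein sequences were not used here.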

Additional observations from a re-analysis of the deposited data

How the results depend on the processing

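The 7 genes called higher kept their call in all 17 alternative fits, and the number of the 9 genes called lower was 0 in each. With each replicate left out in turn 7 to 8 were called higher. Requiring a fold of at least 2.38 left 4 called higher (*acana*, *sox9a*, *snorc* and *hapln1a*). By that rule 1687 of the 20435 genes tested were higher and 487 were lower. The scaling moved the median log2 fold change of all genes from 0.29 to 0.49 when libraries were rescaled to the same sum, and to 0.03 with median-of-ratios factors, and over the 17 fits *acana* stayed between 3.27 and 3.84, *sox9a* between 1.57 and 2.09, *cnmd* between 0.56 and 1.09 and *matn1* (0.93) between 0.61 and 1.28. The uncalled genes depend on it. With rescaling to the same sum *epyc* (0.55) and *ucmab* (0.39) were called higher, giving 9, beside 8816 of the 20435 genes tested. *epyc* was also called with a pseudocount of 0.1 (0.33) and without WT replicate 2 (0.39). With median-of-ratios factors *ucmab* turned to -0.15. With 1 replicate left out the difference in the ratio to *col2a1a* ranged from -0.0040 (without WT replicate 2) to 0.28 for *sox9a*, and from -0.41 to 0.21 (without WT replicate 3) for *snorc*. The cause was not tested. With the gene span trend removed, chondrogenic regulators called higher went from 13 to 6, and tendon markers called higher went from 4 to 0. Calls of higher genes over all genes went from 6494 to 3795 in that fit. Over all genes, calls of higher genes ranged over the 17 fits from 2395 (without *mgt* replicate 2) to 10634 (without WT replicate 1), and of lower genes from 1679 to 5338, against 6494 and 3194. The share called higher among all calls went from 67.0% to 82.2% with rescaling to the same sum, 49.6% with median-of-ratios factors, 46.7% with quantile normalization and 42.1% with the span trend removed. Same-numbered pools did not deviate together (r = -0.03, 0.03 and 0.027 across genes). With 3 pools in each genotype this cannot show whether such pools were matched when collected. The replicate block left 7 called higher. Depth limits mainly genes near an RPKM of 0.5, and all 9 genes were above that in every library.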

Other observations

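Of 8 tested osteoblast markers, 3 were lower and 1 was higher in *mgt*, beside 15.6% lower and 31.8% higher among all genes, with a median log2 fold change of -0.20. *spp1* (-0.74), which encodes osteopontin, *sparc* (-0.57), a collagen-binding protein of bone, and *phex* (-0.43), a protease that acts in phosphate balance and mineralization, fell, and *col1a2* rose by 0.59 on the log2 scale. Without *mgt* replicate 1 or 2 the number lower was 0, and without *mgt* replicate 3 or WT replicate 2 it was 1. Over all genes tested the number lower in these fits was between 1679 and 2278, against 3194 in the main fit. The number higher was 0 with no filter, with median-of-ratios factors, with the gene span trend removed and with any 1 *mgt* replicate left out. *bglap*, which encodes osteocalcin, was at or below 0.19 RPKM in every library. *sp7*, the regulator of osteoblast formation, was at 0.40 to 0.68 RPKM in WT and 0.63 to 0.76 in *mgt* and was not called. *bglap* and *sp7* were named after their values were seen.

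Of 8 tendon markers, 4 were higher and 3 were lower, beside 31.8% higher and 15.6% lower among all genes, with a median of 0.22. With any 1 *mgt* replicate left out 1 higher and 1 lower marker were called, and without WT replicate 2 or 3 there were 2 higher. The number higher was also 2 with quantile normalization or the replicate block, 1 with median-of-ratios factors and 0 with the gene span trend removed. Over all genes the number higher moved with the settings too, to 3795 with the gene span trend removed against 6494 in the main fit. The number lower was 2 without WT replicate 2 and 1 with libraries rescaled to the same sum. The matrix genes *tnc* (1.10) and *thbs4b* (0.52) were the highest. The lowest were *scxb* (-0.77), a regulator of tendon cells, and *xirp2a* (-0.63), a muscle gene that was counted in this list. Of the paralogs *scxa* and *scxb*, *scxa*, named after its values were seen, was called higher with a log2 fold change of 0.42.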
